A study of Mus musculus with 24 samples.

Results

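The genes described here are 33 genes of fatty acid oxidation, ketogenesis and the PPAR-alpha program, taken by name from the 25239 genes in the deposited liver RNA tables. They comprised the receptor Ppara itself, 20 mitochondrial genes, 8 peroxisomal genes, 2 genes of ketone body metabolism (Acat1 and Bdh1), and the PPAR-alpha targets Fgf21 and Vnn1. The mitochondrial genes were those of oxidation and its supply, and Pdk4, a PPAR-alpha target outside oxidation. All 33 were present and tested in each of the 4 RNA comparisons. Their m6A sites numbered 124, 130 and 125 in the 3 site tables used, of 52025, 52315 and 51883 sites in all, and lay in 31 of the 33 genes, with no site listed in Fgf21 or Etfb.

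Livers came from C57BL/6 mice that carried an ApoF gene knockout or were wild type, at 8 and 28 weeks of age, with 3 animals in each of the 4 groups. ApoF is an apolipoprotein made by hepatocytes. From each animal total input RNA was sequenced beside a fraction enriched by immunoprecipitation for N6-methyladenosine (m6A), a methylated base found in messenger RNA. The series asks how that mark differs in the liver of mice that lack ApoF. The labels give no sex, litter or feeding state, and the kind of knockout allele and the kind of wild-type control are not stated there.

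Fatty acids are activated to acyl-CoA, carried into mitochondria as acylcarnitines, and shortened in repeated rounds of dehydrogenation, hydration, a second dehydrogenation and thiolytic cleavage. Peroxisomes shorten very long-chain, branched and dicarboxylic fatty acids with a separate set of enzymes, and liver mitochondria turn surplus acetyl-CoA into ketone bodies. PPAR-alpha, a nuclear receptor activated by fatty acids, switches on genes of all these steps in the fasted liver, and in rodents its activation also enlarges the peroxisome pool.

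Mean normalized counts summed to between 39824285 and 41989205 in each RNA table, and the depth of single libraries is unknown. Apof RNA was present in the knockout at 61.5% of the wild-type level at 8 weeks and at 49.6% at 28 weeks, by the authors' deposited tables (adjusted p = 2.3e-08 and 2.5e-06). The transcript was therefore lowered and not lost in the libraries labelled knockout. Which part of the gene the allele alters is not stated in the labels. The 8-week wild type stood apart in Y-linked RNA. The group means of 4 Y-linked genes summed to 3.49 normalized counts there and to 4965 in the knockout of the same age, with 3 of the 4 higher in the knockout, and to 4506 and 4680 in wild type and knockout at 28 weeks. Xist, the RNA of the inactive X chromosome, stood at 21017 in the 8-week wild type and between 8747 and 10192 in the other groups, and had no adjusted p. Whether the 8-week wild-type animals differ in sex from those of the other groups was not tested. Whatever separates the 8-week wild type in these genes cannot be told apart from genotype at 8 weeks or from age in the wild type. Nor can it be told apart from the change of the knockout effect with age. At 28 weeks the knockout ratios of Ddx3y, Kdm5d and Xist were -0.03, 0.01 and 0.03 on the log2 scale. Their SE were 2.28, 3.22 and 2.57, where the median SE of all genes was 0.25. With age in the knockout these SE were 2.66, 2.54 and 2.80. Libraries within the other groups may therefore also differ in Y-linked RNA and Xist, which cannot be checked without values per library.

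Markers of other cell types also moved at 8 weeks. Of 9 tested matrix and stellate cell markers, 4 were higher in the knockout (summed group means 11732 in wild type and 25713 in knockout). So were 3 of 6 tested erythroid markers (3560 and 12904) and 1 of 4 adipose markers (458 and 1452). Among 14 hepatocyte markers 3 were higher, and the sums were 5352859 and 7406136. Alb alone held 3072557 and 4707569 of these sums, and the median log2 ratio of the 14 was 0.11. Of 11 lymphocyte markers 2 were lower (1733 and 1041). Skeletal muscle markers summed to 36.7 in wild type and 19892 in the knockout, and none of the 5 had an adjusted p. Kupffer, endothelial and bile duct cell markers held 0 calls at 8 weeks, and 5 of 6 pancreas markers (Cpa1, Prss1, Pnlip, Ctrb1 and Amy2a5) were at 0 in both groups. At 28 weeks 2 of 10 endothelial markers were lower in the knockout (17173 and 12907) and every other list held 0 calls. With age in the knockout, 7 of 9 matrix markers (24559 and 7859), 4 of 10 endothelial markers (18132 and 13664), 1 of 6 erythroid and 1 of 4 adipose markers were lower. In the same comparison 1 of 14 hepatocyte markers was higher and 1 lower, and muscle markers summed to 18964 and 45.9. With age in the wild type, calls were 3 higher and 1 lower of 14 hepatocyte markers and 1 higher each for bile duct, erythroid and pancreas markers. The part of these differences in the results below was not tested. In whole liver, fewer cells of a type and less RNA per cell cannot be told apart.

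At 8 weeks the knockout liver held less RNA than the wild type of 6 of the 8 peroxisomal and 4 of the 20 mitochondrial genes described here. By the authors' test (a Wald test on counts, Benjamini-Hochberg adjusted p under 0.05 over all genes of the table), 11 of the 33 genes were lower and 0 were higher, where 2.5% of the 15214 genes tested were lower and 2.48% higher. At an unadjusted p under 0.05, 16 of the genes passed, all with a ratio below 0, and 16.6% of all genes passed in either direction. The ratio of knockout to wild type was below 0 on the log2 scale for 32 of the 33, against 48.8% of all genes, and its median was -0.43 against 0.01 for all genes tested. The median SE was 0.16 for the 33 genes and 0.26 for all genes tested, so a ratio of a given size passed more readily among the 33. Each level below is a group mean in normalized counts, implied by the mean and the ratio in the authors' deposited table, and each ± is the deposited SE of the log2 ratio.

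Ppara, the receptor that governs the program, had group means of 9770 in wild type and 6010 in knockout. Its log2 ratio of -0.70 ± 0.25 did not pass in the authors' deposited table (adjusted p = 0.0874). Among its targets outside oxidation, Vnn1, a pantetheinase on the cell surface, fell to 55.2% of wild type (1340 and 739 normalized counts, adjusted p = 0.0299). Pdk4, the kinase that shuts off pyruvate dehydrogenase, had a ratio of -0.73 ± 0.89 and Fgf21, a fasting hormone, one of -1.68 ± 1.02. Neither passed, and these SE are the widest among the 33 genes. Fgf21 had few reads, at 52.8 and 16.5 normalized counts.

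The peroxisomal genes had the lowest median of the 3 compartments, a log2 ratio of -0.66, with 6 of 8 lower. Acaa1b, a peroxisomal thiolase, fell from 29745 to 13707 normalized counts, which is 46.1% of wild type (log2 ratio -1.12 ± 0.20, adjusted p = 4.1e-06). Its near-identical paralog Acaa1a fell from 7711 to 4881 (-0.66 ± 0.17, adjusted p = 0.00494), and since the authors' counting could split reads between both genes, their separate values are uncertain. Eci2, an isomerase for unsaturated acyl-CoA, fell from 4702 to 2665 (-0.82 ± 0.16, adjusted p = 3.2e-05). Pex11a, which drives peroxisome division, fell from 3021 to 1452 (-1.06 ± 0.26, adjusted p = 0.00305). Decr2, the peroxisomal dienoyl-CoA reductase, fell to 63% of wild type (6810 and 4290) and Ehhadh, the L-bifunctional enzyme, to 70.5% (13539 and 9544), with adjusted p = 0.00127 and 0.00175. The members that did not pass were Hsd17b4, the D-bifunctional enzyme, at -0.16 ± 0.14, and Crot, which makes carnitine esters of medium-chain acyl groups, at -0.04 ± 0.38. All values are from the authors' deposited table.

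Of the 20 mitochondrial genes 4 were lower, and their median ratio was -0.22. Along the route of carnitine import, the carnitine-acylcarnitine translocase Slc25a20 fell from 3404 to 2432 normalized counts (log2 ratio -0.49 ± 0.12, adjusted p = 0.00479) and Cpt2, the inner-membrane palmitoyltransferase, from 4159 to 2849 (-0.55 ± 0.18, adjusted p = 0.043). Cpt1a, the outer-membrane transferase that sets the rate of entry, was at 65.1% of wild type and missed the threshold in the authors' deposited table (adjusted p = 0.0558). Crat and the acyl-CoA synthetase Acsl1 had ratios of -0.98 ± 0.38 and -0.12 ± 0.20 and did not pass. Of the 11 genes of the oxidation cycle 2 were lower. These were Acadm, the medium-chain dehydrogenase, from 16406 to 12062 (-0.44 ± 0.12, adjusted p = 0.00733), and Eci1, the mitochondrial isomerase, from 4897 to 3642 (-0.43 ± 0.14, adjusted p = 0.0475). Acadl, the long-chain dehydrogenase, had group means of 12381 and 8725 and an adjusted p of 0.0632. Calls near the threshold moved with the adjustment: without a filter on low means Cpt2 and Eci1 did not pass (adjusted p = 0.0508 and 0.0561), and with ratios centred on the median of all genes Cpt1a did (adjusted p = 0.0493).

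The remaining steps of the mitochondrial cycle had ratios closer to 0. Acads, Acadvl, Echs1, Hadhb, Hadha and Acaa2 lay between -0.15 and -0.01, Decr1 was at -0.28 and Hadh at -0.41, and none passed. The genes of electron transfer from the acyl-CoA dehydrogenases, Etfa, Etfb and Etfdh, lay between -0.11 and -0.03. For Acaa2, the mitochondrial thiolase, the 95% interval of the log2 ratio ran from -0.26 to 0.23, and for Hadha, the alpha subunit of the trifunctional protein, from -0.33 to 0.30. The ketogenic genes did not pass either. Acat1, the mitochondrial acetoacetyl-CoA thiolase, had a ratio of -0.39 ± 0.20 and Bdh1, which interconverts acetoacetate and hydroxybutyrate, one of 0.03 ± 0.16 (adjusted p = 0.316 and 0.965). These ratios come from the authors' deposited table. The compartments were set side by side as counts and medians only, and the difference between them was not tested.

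**Figure D1:**
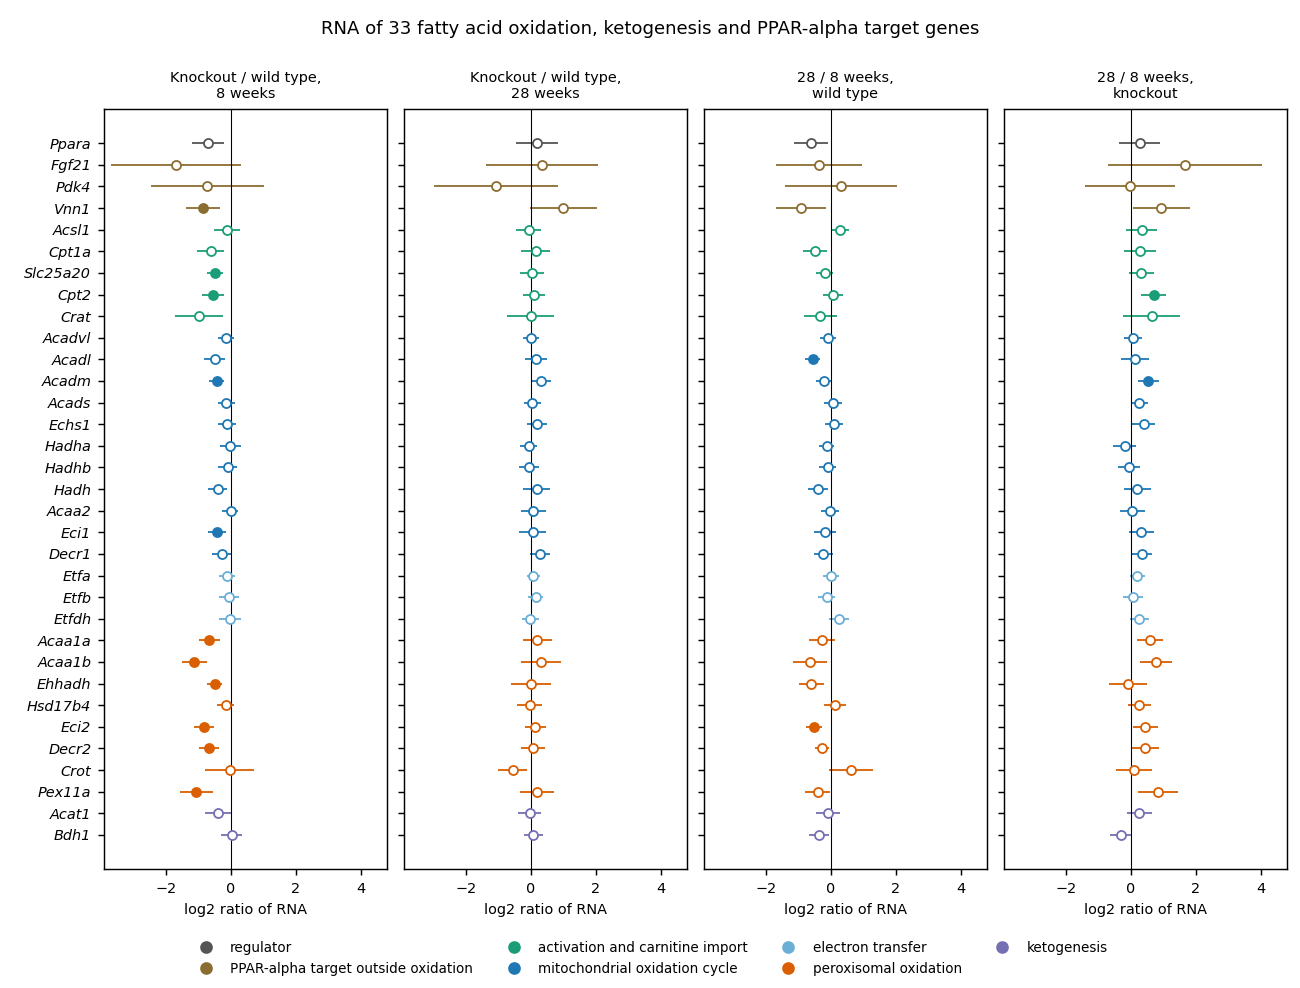
Log2 ratio of RNA of each of the 33 genes in the 4 comparisons, from the authors' deposited tables. Points are ratios, bars are 95% intervals from the deposited SE, colours give the role, and filled points have an adjusted p under 0.05: 11 genes lie below 0 and are filled at 8 weeks, 0 are filled at 28 weeks, 2 are filled with age in the wild type and 2 with age in the knockout.

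The wider pathway, from lists of genes that are not among the 33, held calls in both directions at 8 weeks. Of 27 further genes listed under mitochondrial oxidation and its supply 6 were lower, among them the carnitine importer Slc22a5 (-1.59) and the dienoyl-CoA isomerase Ech1 (-0.57). Of 37 further peroxisomal genes 3 were lower and 2 higher. Their median log2 ratio was -0.27, and that of the genes listed under mitochondrial oxidation was -0.23. The wider gap between the medians of the peroxisomal and mitochondrial members was not seen in these lists. Mlycd stands in both lists, so they do not separate the compartments cleanly. The acyl-CoA thioesterase Acot4 was lower (-1.63), and the CoA diphosphatase Nudt7 was higher (1.62). Of 33 further PPAR-alpha targets 9 were lower and 2 higher, and the smallest p belonged to the thioesterase Acot1 (-1.79) and the fatty acid transporter Cd36 (-1.65). Of 22 listed regulators 2 were lower, Nr4a1 (-3.17) and Nfil3 (-1.13). All 8 genes named here with a ratio passed in the authors' deposited table. Slc22a5 stands in the mitochondrial and in the target list, and Acot1 and Acot4 have close paralogs among which reads could be split.

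Promoter windows of 300 bases (250 before and 50 after the annotated start, RefSeq, build GRCm38.p6) were given for 27 of the 33 genes. PPAR-alpha binds DNA with its partner RXR at direct repeats of AGGTCA spaced by a single base. The windows were searched on both strands for AGGTCA, any base and AGGTCA again, with up to 2 mismatches, and for exact AGGTCA, which overlaps the longer motif, and the mismatch limit and the shorter motif were settled after the members' matches had been seen. The repeat was found in 3 of the 27 genes, Echs1, Etfa and Slc25a20, where 3.86% of all 32851 windows hold it. Exact AGGTCA was found in 4, Acadm, Echs1, Acadvl and Cpt1a, where 16.3% of all windows hold it. Of the 10 genes lower at 8 weeks that have a window, 1 held the repeat and 1 exact AGGTCA, and of the other 17 genes 2 and 3 did. A match is a string of letters and not a measured binding site, and sequence outside these windows was not searched.

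The windows below, chosen after the values were seen, belong to the genes whose knockout effect differed between ages (Acaa1b, Eci2 and Acadm), to the called gene with the repeat (Slc25a20) and to Hadhb, which did not pass in any comparison. They are written 5′ to 3′ on the strand of the gene, and capitals mark the match to a motif. Acaa1b lies at chr9:119157044-119157343 (minus strand), Eci2 at chr13:34994095-34994394 (minus), Acadm at chr3:153944594-153944893 (minus), Slc25a20 at chr9:108661886-108662185 (plus) and Hadhb at chr5:30155003-30155302 (plus).
Acaa1b: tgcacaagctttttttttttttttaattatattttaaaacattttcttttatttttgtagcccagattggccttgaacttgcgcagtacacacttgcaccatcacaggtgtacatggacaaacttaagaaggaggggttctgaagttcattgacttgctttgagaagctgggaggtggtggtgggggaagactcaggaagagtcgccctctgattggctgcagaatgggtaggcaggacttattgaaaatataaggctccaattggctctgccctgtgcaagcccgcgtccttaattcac
Eci2: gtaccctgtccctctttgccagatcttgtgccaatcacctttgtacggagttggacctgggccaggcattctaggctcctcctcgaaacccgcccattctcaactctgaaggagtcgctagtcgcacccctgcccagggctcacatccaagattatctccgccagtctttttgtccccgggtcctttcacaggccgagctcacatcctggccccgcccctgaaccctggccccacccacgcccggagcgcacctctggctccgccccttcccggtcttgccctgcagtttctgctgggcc
Acadm: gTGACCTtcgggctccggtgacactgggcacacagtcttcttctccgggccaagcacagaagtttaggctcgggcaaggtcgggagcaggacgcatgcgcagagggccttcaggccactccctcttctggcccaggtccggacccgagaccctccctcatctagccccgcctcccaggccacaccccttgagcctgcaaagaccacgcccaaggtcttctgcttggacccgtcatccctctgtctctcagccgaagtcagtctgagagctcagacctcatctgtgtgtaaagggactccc
Slc25a20: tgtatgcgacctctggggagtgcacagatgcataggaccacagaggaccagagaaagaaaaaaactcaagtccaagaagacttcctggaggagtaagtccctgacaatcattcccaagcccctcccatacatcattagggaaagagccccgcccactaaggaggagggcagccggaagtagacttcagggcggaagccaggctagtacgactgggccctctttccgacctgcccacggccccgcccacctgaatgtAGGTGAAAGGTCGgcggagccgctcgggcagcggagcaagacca
Hadhb: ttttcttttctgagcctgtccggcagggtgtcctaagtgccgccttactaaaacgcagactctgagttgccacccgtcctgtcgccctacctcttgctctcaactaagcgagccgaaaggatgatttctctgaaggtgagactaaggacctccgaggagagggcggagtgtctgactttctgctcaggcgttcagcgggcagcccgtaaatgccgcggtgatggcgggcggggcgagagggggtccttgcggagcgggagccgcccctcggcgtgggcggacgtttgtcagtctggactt
The Acadm match is TGACCT, which is AGGTCA on the opposite strand, and starts at position -249 relative to the annotated start. The Slc25a20 match begins 6 bases past the start and differs from the repeat at 2 positions. The windows of Acaa1b, Eci2 and Hadhb held neither motif. Hadha and Hadhb, the subunits of the trifunctional protein, lie head to head, and their windows share 228 bases. Their 8-week log2 ratios were -0.02 and -0.10 in the authors' deposited table.

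At 28 weeks 0 of the 33 genes passed the authors' test, where 0.257% of 14391 genes did in either direction. At an unadjusted p under 0.05 a single gene passed, Crot (33749 in wild type and 22977 in knockout, log2 ratio -0.55 ± 0.23, adjusted p = 0.594 in the authors' deposited table), against 5.66% of all genes. The median ratio of the 33 genes was 0.08 against 0.01 for all genes. It was 0.07 for the mitochondrial, 0.10 for the peroxisomal and 0.02 for the ketogenic genes. Acaa1b had group means of 17091 and 21220, Eci2 of 2976 and 3260, Acadm of 12709 and 15674, and Ppara of 5756 and 6509. The lists of further ketone body, mitochondrial, peroxisomal, target and regulator genes held 0 calls at this age. The median SE was 0.19 at this age and 0.16 at 8 weeks.

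The knockout effect itself differed between the ages for 3 genes. Its change was taken as the difference of the log2 ratios at 28 and 8 weeks, whose libraries are separate, with a Wald test adjusted over 14278 genes. Acaa1b changed by 1.43 ± 0.37 (adjusted p = 0.0127), from -1.12 to 0.31. Eci2 changed by 0.95 ± 0.23 (adjusted p = 0.00594), from -0.82 to 0.13. Acadm changed by 0.75 ± 0.20 (adjusted p = 0.0198), from -0.44 to 0.30. Of all genes 0.784% changed upward and 0.791% downward by this test. None of the 33 changed downward. At an unadjusted p under 0.05, 14 of the 33 passed, all upward, and 1663 of all genes passed in either direction. The median change was 0.51 for the 33 genes, 0.79 for the peroxisomal, 0.25 for the mitochondrial and 0.20 for the ketogenic genes, and 0.00 for all genes.

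Several genes with wider errors had differences of like size that missed the threshold. Vnn1 had a difference of 1.86 ± 0.59 (adjusted p = 0.0814), Pex11a of 1.26 ± 0.37 (adjusted p = 0.0505), Cpt1a of 0.77 ± 0.31 (adjusted p = 0.222) and Ppara of 0.88 ± 0.42 (adjusted p = 0.377). Over genes with a mean of at least 10, Pex11a passed (adjusted p = 0.049). Hadha, Hadhb, Acaa2, Etfdh, Acsl1 and Bdh1 had differences between -0.05 and 0.08, with SE of 0.21 to 0.28. These differences contain the 8-week wild type, which stands apart in Y-linked RNA, and the 8-week knockout, which stands apart in matrix and muscle RNA.

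**Figure D2:**
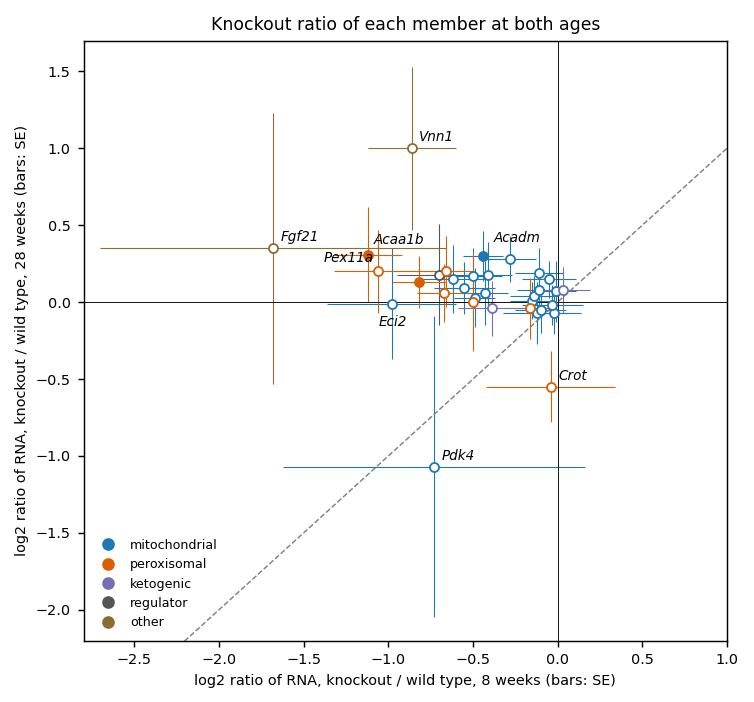
Log2 ratio of knockout over wild type at 28 weeks against that at 8 weeks for the 33 genes, with SE bars; the dashed line marks equal ratios. Colours give the compartment, and the filled points, Acaa1b, Eci2 and Acadm, are the 3 genes whose ratio differed between ages at an adjusted p under 0.05, all lying above the line.

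With age in the wild type 2 of the 33 genes were lower at 28 weeks and 0 higher, where 1.86% of 13474 genes were lower and 2.37% higher. Acadl fell from 11671 to 7994 normalized counts (log2 ratio -0.55 ± 0.12, adjusted p = 3.9e-04) and Eci2 from 4432 to 3118 (-0.51 ± 0.13, adjusted p = 0.00367) in the authors' deposited table. At an unadjusted p under 0.05, 12 genes passed, 11 with a ratio below 0 and Acsl1 with one of 0.29, and 14.7% of all genes passed. Ppara was at 65.5% of its 8-week level (-0.61 ± 0.27, adjusted p = 0.222), Ehhadh at 66.1% (adjusted p = 0.0553) and Acaa1b at 63.9% (adjusted p = 0.175). The median ratio was -0.19 for the 33 genes, -0.34 for the peroxisomal, -0.11 for the mitochondrial and -0.22 for the ketogenic genes, against -0.01 for all genes. This comparison shares its 8-week wild-type libraries with the 8-week knockout comparison.

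Among the further lists in the aging wild type, 7 of 31 tested PPAR-alpha targets were lower, with the reductase Por (-1.68) and the aldehyde dehydrogenase Aldh3a2 (-0.96) at the smallest p. Of 9 ketone body genes 1 was lower, Aacs, which activates acetoacetate (-1.53). Of 24 tested genes listed under mitochondrial oxidation and its supply 2 were higher and 1 lower, with Acad8 at 0.54 and Slc22a5 at -0.70. Of 37 peroxisomal genes 1 was higher, Acox2, an oxidase of branched acyl-CoA (0.93), and of 22 regulators 1 was lower, Nr4a1 (-2.46). All values passed in the authors' deposited table.

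With age in the knockout the called genes moved up. Of the 33 genes 2 were higher and 0 lower, where 2.03% of 14798 genes were higher and 2.46% lower. Cpt2 rose from 2720 to 4423 normalized counts (log2 ratio 0.70 ± 0.19, adjusted p = 0.0122) and Acadm from 11520 to 16598 (0.53 ± 0.16, adjusted p = 0.0323), per the authors' deposited table. Acaa1b, at 13092 and 22483, missed the threshold (0.78 ± 0.26, adjusted p = 0.0501), as did Acaa1a (0.59 ± 0.21, adjusted p = 0.0761) and Pex11a (0.84 ± 0.32, adjusted p = 0.115). At an unadjusted p under 0.05, 10 genes passed, all with a ratio above 0, and 15.8% of all genes passed. Acaa1b did pass when adjusted over genes with a mean of at least 10 (adjusted p = 0.0486) or with centred ratios (adjusted p = 0.0484). Bdh1 had group means of 13180 and 10621 and a ratio of -0.31 ± 0.16. The medians were 0.27 for the 33 genes, 0.44 for the peroxisomal, 0.26 for the mitochondrial and -0.03 for the ketogenic genes. The 8-week knockout libraries are shared with the 8-week comparison.

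In the further lists of the aging knockout, 3 of 37 peroxisomal genes were higher, with the peroxisome biogenesis genes Pex11g (1.37) and Pex6 (0.67) at the smallest p. Of 31 tested PPAR-alpha targets 2 were higher, Aldh3a2 (1.27) and Cd36 (1.84). Of 26 tested mitochondrial genes 1 was higher, the propionyl-CoA carboxylase subunit Pccb (0.82). Of 9 ketone body genes 1 was higher, Bdh2 (1.46), and 1 lower, the monocarboxylate transporter Slc16a6 (-1.08), and of 22 regulators 1 was higher, Nfil3 (1.14). All passed in the authors' deposited table.

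**Figure D3:**
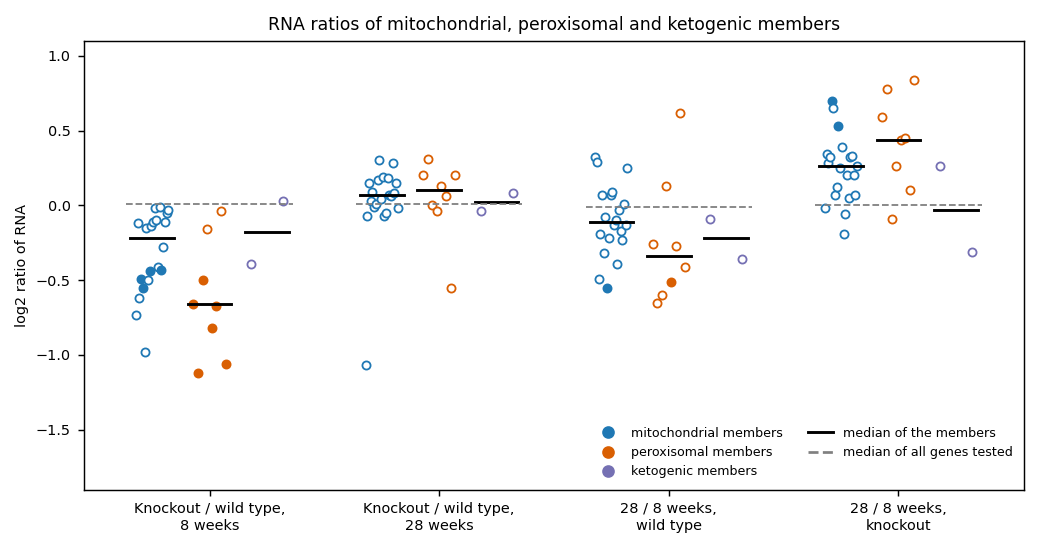
Log2 ratios of RNA of the 20 mitochondrial, 8 peroxisomal and 2 ketogenic genes in each comparison, from the authors' deposited tables, with filled points at an adjusted p under 0.05. Black lines are medians of the members and dashed lines medians of all genes tested; the peroxisomal median moves from -0.66 at 8 weeks to 0.10 at 28 weeks.

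The remaining values of the called genes show how each stood in the other comparisons. Slc25a20 had log2 ratios of 0.03 ± 0.19 at 28 weeks, -0.19 ± 0.14 with age in the wild type and 0.32 ± 0.19 with age in the knockout. For Cpt2 the first of these was 0.09 ± 0.17 and the second 0.07 ± 0.15. Eci1 stood at 0.06 ± 0.21, -0.17 ± 0.17 and 0.32 ± 0.20 in the same order. In the authors' deposited tables none of these passed. The peroxisomal genes had 28-week ratios of 0.20 ± 0.23 for Acaa1a, 0.00 ± 0.32 for Ehhadh, 0.06 ± 0.19 for Decr2 and 0.20 ± 0.27 for Pex11a, and age ratios in the wild type of -0.26 ± 0.20, -0.60 ± 0.20, -0.27 ± 0.12 and -0.41 ± 0.20. Vnn1 had ratios of 1.00 ± 0.53 at 28 weeks, -0.92 ± 0.40 with age in the wild type and 0.94 ± 0.45 with age in the knockout. These too missed the threshold.

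The m6A tables list, for each site, the reads of the pull-down (IP) and of the input, added up by the authors across the 3 libraries of each group. Sites carry no coordinates here, so sites of a gene are numbered from 1 by falling input reads within a table. The log2 ratio of a site is the deposited change of IP over input, positive for a higher share in the knockout or at 28 weeks. Its standard error, worked back from the deposited p, equalled the counting error of the read sums within 10% at 100% of 45249 to 45829 sites, with a median quotient of 1.000. The authors' site p therefore contains no spread between animals. With a spread of 10% added to each read sum, 0 member sites passed in any table, and the calls below hold for these pooled reads only. Site ratios and RNA ratios also share the input libraries.

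At 8 weeks 15 of the 111 tested member sites were higher and 6 lower in the knockout, where 5.52% of the 25727 sites tested were higher and 5.43% lower. Member sites were deeper than most, with a median of 1423 input reads in the wild type against 163 for all sites, and the smallest called change among them was 0.07 in size. By compartment the calls were 9 higher and 1 lower of 54 mitochondrial sites, 5 higher and 0 lower of 31 peroxisomal sites, and 0 higher and 4 lower of 11 ketogenic sites. The highest ratios among called sites belonged to site 2 of Acaa1a (0.37, adjusted p = 1.1e-05), site 2 of Ehhadh (0.29, adjusted p = 5.7e-06) and site 3 of Crot (0.24, adjusted p = 5.8e-04), by the authors' deposited table. Of these, the Ehhadh site had 3669 IP and 3129 input reads in the wild type and 3054 and 1996 in the knockout. Both sums were lower in the knockout, the input sum by more, in a gene whose RNA fell.

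The 4 lower ketogenic sites all lie in Bdh1, and they were singled out after their values were seen. Their ratios were -0.32, -0.25, -0.36 and -0.47 at sites 3, 4, 5 and 6 in the authors' deposited table (adjusted p = 4.6e-04, 0.0146, 0.00161 and 0.00593). Site 3 had 1167 IP and 1785 input reads in the wild type and 1203 and 1999 in the knockout. The deepest Bdh1 site had a ratio of 0.05 (adjusted p = 0.0942), and Bdh1 RNA had a ratio of 0.03. Differences between sites of a gene were not tested. The lowest ratio of all was at site 12 of Ppara, -0.87 (adjusted p = 0.00462), with 140 IP and 215 input reads in the wild type and 103 and 173 in the knockout. Scaled to the reads at all sites, log2 of IP over input there was -0.59 and -0.86, a smaller change than the deposited ratio. The deepest Ppara site had a ratio of 0.00 from 11923 IP and 9734 input reads in the wild type and 10637 and 7583 in the knockout.

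At the deepest site of the 13 named genes (the 12 genes called in any RNA comparison and Ppara), ratios at 8 weeks ran from -0.13 in Slc25a20 to 0.17 in Acaa1a and Acaa1b. Of these, Acaa1b (14323 IP and 25833 input reads in the wild type, 8208 and 11683 in the knockout, adjusted p = 7.8e-09), Acaa1a (adjusted p = 0.00377) and Acadl (0.07, adjusted p = 0.0147) were higher in the authors' deposited table. The same caution on near-identical paralogs applies to the Acaa1a and Acaa1b sites.

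**Figure D4:**
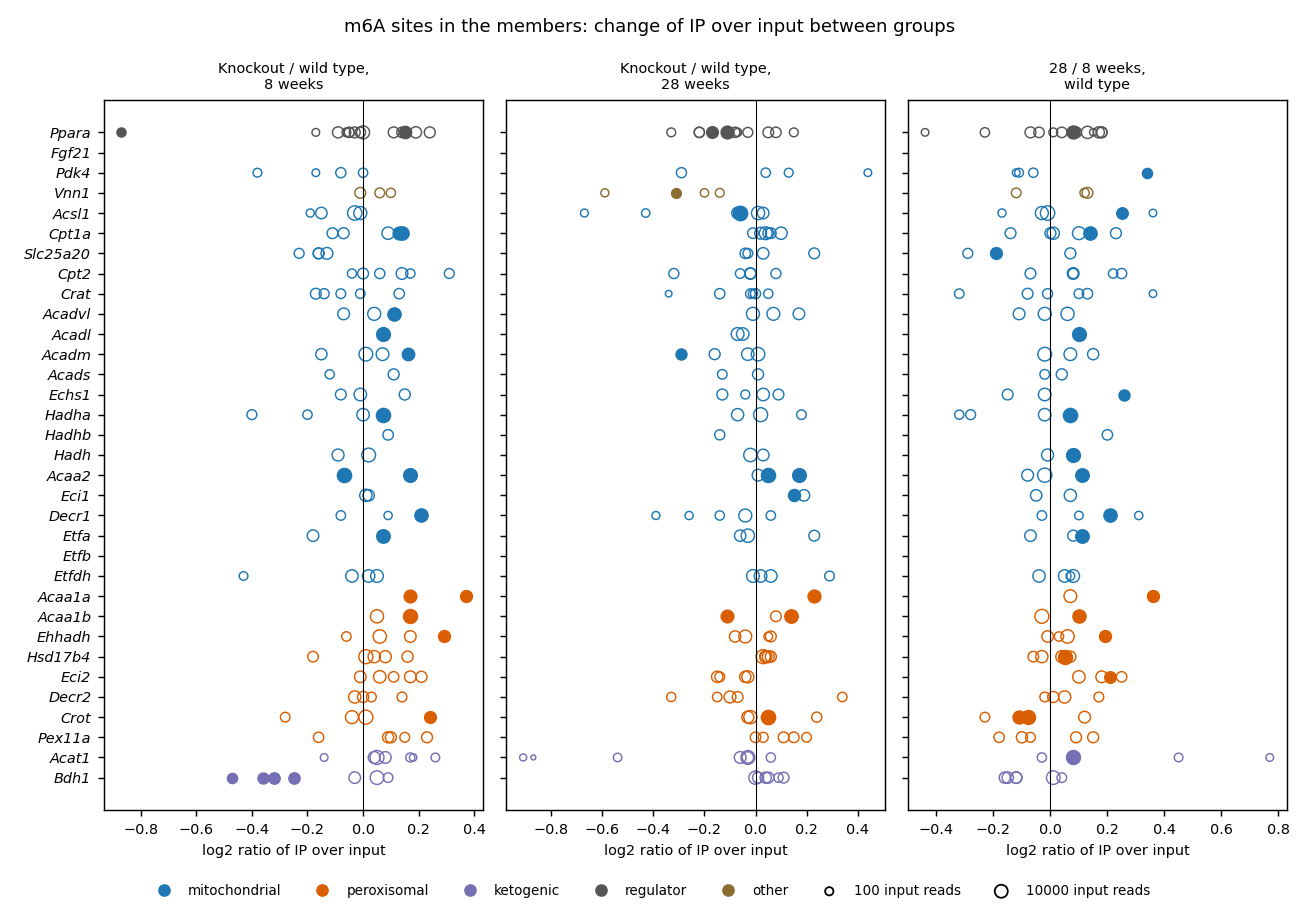
Deposited log2 ratio of IP over input at every listed m6A site of the 33 genes in 3 comparisons, with larger circles for more input reads in the reference group and colours for the compartment. Filled circles have an adjusted p under 0.05 on counting error alone: 15 higher and 6 lower at 8 weeks, 6 and 6 at 28 weeks, and 17 and 3 with age in the wild type.

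At 28 weeks 6 of the 101 tested member sites were higher and 6 lower, where 2.57% of 18751 sites were higher and 6.62% lower. The highest called ratios were at the deepest site of Acaa1a (0.23, adjusted p = 8.9e-09), site 2 of Acaa2 (0.17, adjusted p = 2.3e-11) and the deepest site of Eci1 (0.15, adjusted p = 0.0239). The lowest called ratios were at the deepest site of Vnn1 (-0.31, adjusted p = 0.0407), site 3 of Acadm (-0.29, adjusted p = 0.0064) and site 2 of Ppara (-0.17, adjusted p = 0.0204), all from the authors' deposited table. The deepest Ppara site had 12233 IP and 7818 input reads in the wild type and 14593 and 10498 in the knockout, a ratio of -0.11 (adjusted p = 0.00131). The deepest Acaa1b site was higher (0.14, adjusted p = 1.4e-06), and the deepest sites of Slc25a20, Cpt2, Acadl, Acadm, Ehhadh, Eci2, Decr2 and Pex11a, from -0.10 to 0.11, did not pass. Of 8 tested ketogenic sites 0 were called, and the Bdh1 sites joined to sites 3 and 4 at 8 weeks by their wild-type reads had ratios of 0.05 and 0.01 in the same table. The 8-week sites 5 and 6 of Bdh1 were not joined to sites of this table.

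With age in the wild type 17 of the 104 tested member sites were higher and 3 lower, where 9.06% of 20628 sites were higher and 2.2% lower. Calls were 10 higher and 1 lower among 53 mitochondrial, 5 higher and 2 lower among 30 peroxisomal, and 1 higher among 9 ketogenic sites. The highest ratios among called sites were at site 2 of Acaa1a (0.36, adjusted p = 3.9e-06), the deepest site of Pdk4 (0.34, adjusted p = 0.0156) and site 2 of Echs1 (0.26, adjusted p = 0.0366). The 3 lower sites were the deepest site of Slc25a20 (-0.19, adjusted p = 0.0272) and sites 2 and 1 of Crot (-0.11 and -0.08), by the authors' deposited table. The deepest Decr1 site, chosen after its values were seen, had the same ratio of 0.21 here (adjusted p = 1.2e-10) and at 8 weeks (adjusted p = 2.7e-11), in comparisons that share the 8-week wild-type libraries. Among the deepest sites of the 13 named genes, Acadl (0.10) and Ppara (0.08) were higher, and those of the others ranged from -0.10 to 0.13 and did not pass, Slc25a20 aside.

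The site tables could be joined where their wild-type read sums were equal, which followed 48 sites in 21 of the 33 genes through all 4 groups. A test of the difference in knockout effect between ages at these sites was added after the data had been seen. It uses counting error and is adjusted over 13823 sites. Of the 48 sites 2 changed upward and 2 downward, where 1.66% of all such sites changed upward and 2.86% downward. Sites are numbered anew here, by falling input reads among the joined sites. Bdh1 site 3 changed by 0.38 ± 0.11 (adjusted p = 0.0211), from -0.32 to 0.05, and Acaa2 site 1 by 0.12 ± 0.02 (adjusted p = 1.1e-05), from -0.07 to 0.05. Ehhadh site 1 changed by -0.37 ± 0.08 (adjusted p = 4.0e-04), from 0.29 to -0.08, and Acat1 site 1 by -0.08 ± 0.03 (adjusted p = 0.048), from 0.05 to -0.03. With a spread of 10% added to each read sum, 0 of the 48 and 1 of all 13823 joined sites passed.

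The joined site of Acaa1b, whose RNA ratio differed between ages, had a higher share in the pull-down of the knockout at both ages. Log2 of IP over input was -0.83 in the 8-week wild type, -0.62 in the 8-week knockout, -0.81 in the 28-week wild type and -0.64 in the 28-week knockout. The deposited ratios were 0.17 and 0.14, and their difference was -0.03 ± 0.04 (adjusted p = 0.787). For the deepest Ppara site the levels were 0.31, 0.37, 0.42 and 0.31 in the same order, and the difference was -0.12 ± 0.04 (adjusted p = 0.0722). The 3 joined sites of Eci2 had differences of -0.21, -0.13 and -0.26, none past the threshold.

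**Figure D5:**
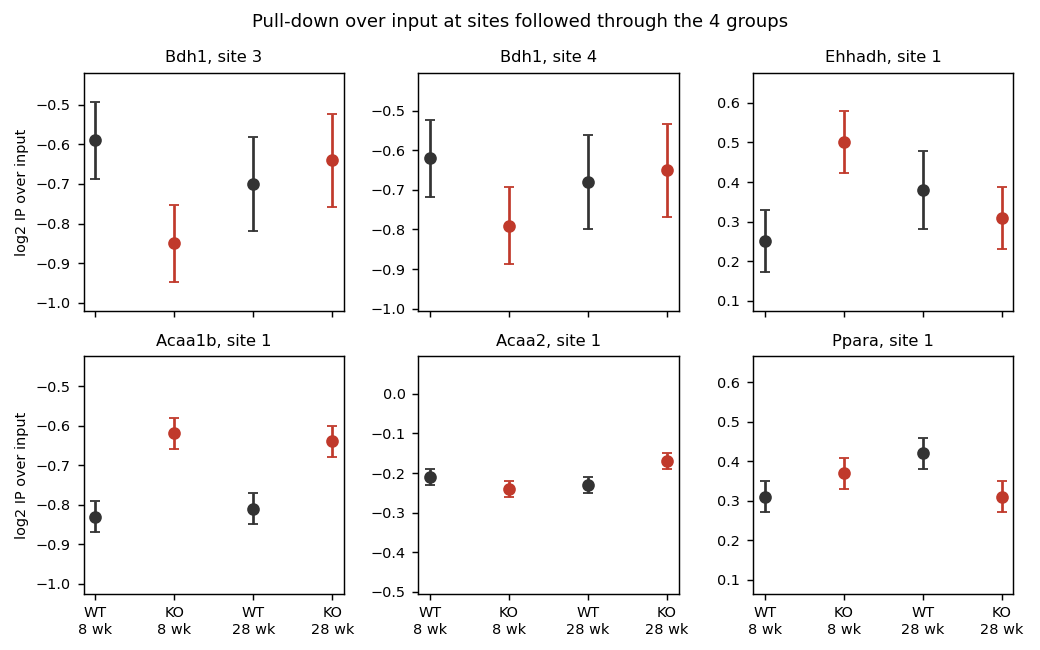
Log2 of IP over input, scaled to the reads at all listed sites, at 6 joined sites in the 4 groups; each panel spans the same range, and bars are 95% counting intervals that hold no spread between animals. Bdh1 site 3 is at -0.59 in the 8-week wild type and -0.85 in the 8-week knockout, and Acaa1b site 1 is at -0.83 and -0.62 at 8 weeks and at -0.81 and -0.64 at 28 weeks.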

How the data were processed

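The series holds 24 libraries, an input and an m6A immunoprecipitated (IP) one from the liver of each of 12 mice, stranded and with molecular identifiers per the labels' protocols. HISAT2, StringTie and DESeq are listed in the submitters' processing notes, without versions. Neither a genome build, nor a site caller, nor positions of sites are stated in the sources used. The RNA signal values are the authors' means of normalized counts over the compared libraries, per the file headers. The log2 ratios, their SE, the Wald score (ratio over SE) and each p-value are the authors' DESeq2 output, per the file headers, with a Wald test and Benjamini-Hochberg adjustment in the RNA tables. Each site count is a read sum that the authors deposited per group, without normalization. No values per library are in the tables used, so the authors' p is the test of each single comparison, at an adjusted p under 0.05, and no count model was fitted. The change of the knockout effect with age, in genes and at joined sites, was tested here from the deposited values. The table of knockout age sites and a sheet of gene names were not used.

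The numerator is not stated and was settled from the values. In the 3 comparisons with site reads, input read ratios and deposited RNA ratios had a Pearson r of -0.83 over 10667 genes, -0.74 over 10497 and -0.88 over 10422 (genes are not independent replicates). Read sums of the wild type were equal between tables at 21900 and 22361 sites, and other columns shared only 26 to 56. The 4 RNA ratios closed to a median residual of 0.00357 over 13383 genes, against 0.482 with the knockout age sign turned. RNA signs were therefore turned and site signs kept. Group means are implied by the mean and ratio of a table, and each table was normalized separately. Whether the 3 animals of a group share a litter or a batch is not stated, so RNA p-values measure only the spread between these samples. Site p-values and counting intervals cover counting error only.

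The change of the knockout effect with age was a Wald test on the difference of both ratios with their SE. Levels of IP over input used 0.5 added reads and the reads at all listed sites. The members and lists were chosen with earlier results of these data known. Named genes were every member called in any RNA table and Ppara. Named sites were the 3 highest and 3 lowest called sites of a table and the deepest site of each named gene, and further lists gave up to 2 genes of smallest p. The 8-week values of the further ketone body list are not reported here. The deepest Bdh1 and Decr1 sites, the 4 lower Bdh1 sites, the joined sites, the motif search and the promoters printed were chosen after values were seen. Alternatives were thresholds of 0.01 and 0.1, other filters on low means or reads, centred ratios, site ratios recomputed from the read sums and centred on their median, and an added spread of 10%. The RNA test of the change with age and the recomputed site test were run on simulated data, and the authors' tests were not. Simulated RNA ratios took the deposited SE and simulated site reads held counting error alone, so spread between animals at sites was not covered. Python 3.11.15 was used with numpy 2.4.6, pandas 2.3.3, scipy 1.17.1 and matplotlib 3.10.9.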

Additional observations from a re-analysis of the deposited data

Results flagged for a closer look

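The difference in knockout effect between 28 and 8 weeks passed its own test for the RNA of Acaa1b (1.43 on the log2 scale), Eci2 (0.95) and Acadm (0.75). It passed upward at a joined m6A site of Bdh1 (0.38) and of Acaa2 (0.12), and downward at one of Ehhadh (-0.37) and of Acat1 (-0.08), on counting error alone. All 7 rest in part on the 8-week wild type, the group with a Y-linked sum of 3.49 normalized counts, and this cannot be told apart from the difference between ages.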

How the results depend on the processing

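The counts of members lower in RNA at 8 weeks and with age in the wild type moved by at most 1.5 times under every alternative run, and 0 calls at 28 weeks remained 0. The counts of 15 higher and 6 lower member sites at 8 weeks also moved by at most 1.5 times, except with the added spread below. Members higher with age in the knockout numbered 2, and 0 at an adjusted p under 0.01 or 4 under 0.1. Members whose knockout effect changed upward numbered 3, and 1 or 5 at those thresholds. Centring moved the compartment medians by less than the SE of the members. Of the member sites at 28 weeks 6 were higher and 6 lower. The counts were 3 and 3 at 0.01, 10 higher at 0.1, 3 lower among sites with at least 10 reads in every sum, and 10 and 2 with ratios recomputed from the read sums and centred on the median of all sites. With age in the wild type 17 sites were higher and 3 lower, with 9 higher at 0.01 and 7 and 5 recomputed. A spread of 10% added to each read sum left 0 member sites, higher or lower, in each of the 3 tables and 0 of the joined member sites. The recomputed, centred ratio was -0.03 for Etfa site 1 at 8 weeks and -0.02 for Hsd17b4 site 1 with age in the wild type, with or without that spread, where the deposited ratios were 0.07 and 0.05. Scaled to the reads at all listed sites instead, log2 of IP over input was 0.11 and 0.14 at the Etfa site and 0.12 and 0.13 at the Hsd17b4 site, so these signs rest on the centring. The added spread by construction lowers calls, and the cause of the other shifts was not tested.

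No paired analysis was possible because the tables hold no values per library, and leaving out a replicate could not be run for the same reason. Sites with few reads, such as that of Acat1 with 33 and 53 input reads at 28 weeks, resolve only large changes.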

Other observations

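Acat1, the mitochondrial acetoacetyl-CoA thiolase, had sites with a high share in the pull-down but few reads. Its site 5 had 412 IP and 120 input reads in the 28-week wild type and 304 and 133 in the knockout, a deposited log2 ratio of -0.54 with no adjusted p. At 8 weeks its site 5 had 324 and 143 reads in the wild type and 268 and 93 in the knockout, a ratio of 0.26 (adjusted p = 0.547 in the authors' deposited table). Sites numbered alike in both tables need not be the same site. The deepest site of Crot, the carnitine octanoyltransferase, went from 28956 to 43367 IP reads with age in the wild type. Its input reads went from 26744 to 36562. Reads at all listed sites went from 73060310 to 89465744 in the IP and from 74474361 to 76054303 in the input. The RNA ratio of Crot, 0.62 ± 0.34, did not pass (adjusted p = 0.399 in the authors' deposited table).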
